A study of Mus musculus with 2 samples.

Results

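The chemokines Xcl1, Ccl5, Ccl1, Ccl17 and Ccl22 and the receptors Ccr4 and Ccr8 were described in spatial transcriptomics of orthotopic mouse pancreatic tumors. These 7 genes, of 19465 features measured, were taken by symbol. They were chosen from earlier results of these data, so their levels in the libraries are given as a description. Chemokines are small secreted proteins that draw cells along a gradient through receptors on the cell surface. Xcl1 is made by activated T cells and natural killer (NK) cells and attracts cross-presenting dendritic cells (cDC1) through Xcr1. Ccl5 is made by T cells, NK cells and myeloid cells and binds Ccr1 and Ccr3, Ccl1 is a product of activated T cells that binds Ccr8, and Ccl17 and Ccl22 are dendritic cell and macrophage products that bind Ccr4. Both Ccr4 and Ccr8 are found on regulatory T cells. On GRCm38, Xcl1 (ENSMUSG00000026573) lies at chr1:164931644-164935527, Ccl1 (ENSMUSG00000020702) and Ccl5 (ENSMUSG00000035042) at chr11:82176657-82305690 and chr11:83525778-83530518, and Ccr4 (ENSMUSG00000047898) and Ccr8 (ENSMUSG00000042262) at chr9:114490316-114504916 and chr9:120092114-120094906. Ccl22 (ENSMUSG00000031779) and Ccl17 (ENSMUSG00000031780) are neighbors on chromosome 8, and all 7 genes are protein coding.

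The study compared tumors of KPC cells, a pancreatic cancer line from engineered mice with a Pdx1-driven Cre, that carried either a short hairpin RNA against Zeb1 (KPC-shZEB1) or the control vector (KPC-shV). Both stable lines were grown as orthotopic allografts in the pancreas of mice, the labels give 2 tumors per group, and 1 library per group was analyzed here, with no record of which tumor it covers. The study used C57BL/6J, BALB/c and NSG mice of both sexes, a few weeks old, and the strain and sex behind each library are not given in the sources used here. The labels name no drug, but the study describes gemcitabine for the tumors of its single-cell experiment and took its spatial sections from those tumors. Visium CytAssist probes were counted as unique molecular identifiers (UMIs) in barcoded spots, and a spot covers a patch of tissue that may contain more than 1 cell type.

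Depth was 140493626 UMIs over 2220 spots for KPC-shZEB1 and 172059528 UMIs over 3552 spots for KPC-shV. Normal pancreas lay in both sections, and spots with over 20% of their UMIs from acinar enzyme genes, called acinar-rich, held 39.3% and 3.85% of all UMIs. Acinar UMIs are part of each library's total, and the ratios between the libraries (KPC-shZEB1 over KPC-shV) had a median log2 value of -0.48 over 15358 genes, or -0.02 over 14370 genes when acinar-rich spots were dropped. The level of Zeb1, targeted by the hairpin, was 10.8 and 12.4 UMIs per 1000000 UMIs of the library (CPM). Its log2 ratio was -0.20 over all spots and 0.29 outside acinar-rich spots, so this gene does not bear out the labels there. The hairpin was in the KPC cells only and a spot may hold other cells, so this level cannot check the knockdown. The study measured the knockdown in the KPC cells. The libraries are called by their labels. The 2 barcode lists shared 1718 positions of the common slide design. A single library per group allows no test, the 95% intervals in parentheses cover counting error only, and fewer cells of a type cannot be told apart from less RNA per cell.

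All 5 ligands had higher levels in the library labelled KPC-shZEB1. Xcl1 had 14.3 CPM (13.7 to 15.0) there, from 2011 UMIs, and 4.14 CPM (3.85 to 4.46) in KPC-shV, from 713 UMIs, a log2 ratio of 1.79 (1.66 to 1.91). For Ccl5 the level of 204.2 CPM (201.9 to 206.6) compared with 68.9 CPM (67.6 to 70.1), and the log2 ratio was 1.57 (1.54 to 1.60). Ccl1 was counted at 5.97 CPM (5.57 to 6.39) against 2.18 CPM (1.96 to 2.41), which gave a log2 ratio of 1.45 (1.28 to 1.63). The log2 ratios of Xcl1, Ccl5 and Ccl1 were the highest of the 7 genes.

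The dendritic cell ligands differed less between the libraries. Ccl17 had 27.8 CPM (26.9 to 28.7) in KPC-shZEB1 and 14.1 CPM (13.6 to 14.7) in KPC-shV, a log2 ratio of 0.98 (0.90 to 1.05). Ccl22 was at 11.9 CPM (11.3 to 12.5) against 6.11 CPM (5.74 to 6.49), and its log2 ratio was 0.96 (0.85 to 1.07). These intervals overlap each other and lie below those of Xcl1, Ccl5 and Ccl1.

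The receptors were near the lower end of what the assay reads. Ccr4, from 192 and 185 UMIs, was at 1.37 CPM (1.18 to 1.57) against 1.08 CPM (0.926 to 1.24), with a log2 ratio of 0.35 (0.05 to 0.65). Ccr8, from 178 and 163 UMIs, was at 1.27 CPM (1.09 to 1.47) against 0.947 CPM (0.807 to 1.10), with a log2 ratio of 0.42 (0.10 to 0.73). For comparison, 14 genes of retina, testis, lens and other tissues, chosen as not expected in these sections, ranged from 0.427 to 3.60 CPM (median 0.762) in KPC-shZEB1 and from 0.541 to 8.08 CPM (median 0.907) in KPC-shV. The levels of Ccr4 and Ccr8 thus lie inside this range. Xcl1, Ccl1 and Ccl22 in KPC-shV also lie below the highest of these genes there, Omp. The direction of Ccr8 turned, to a log2 ratio of -0.092, when CPM was computed per spot and averaged.

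**Figure D1:**
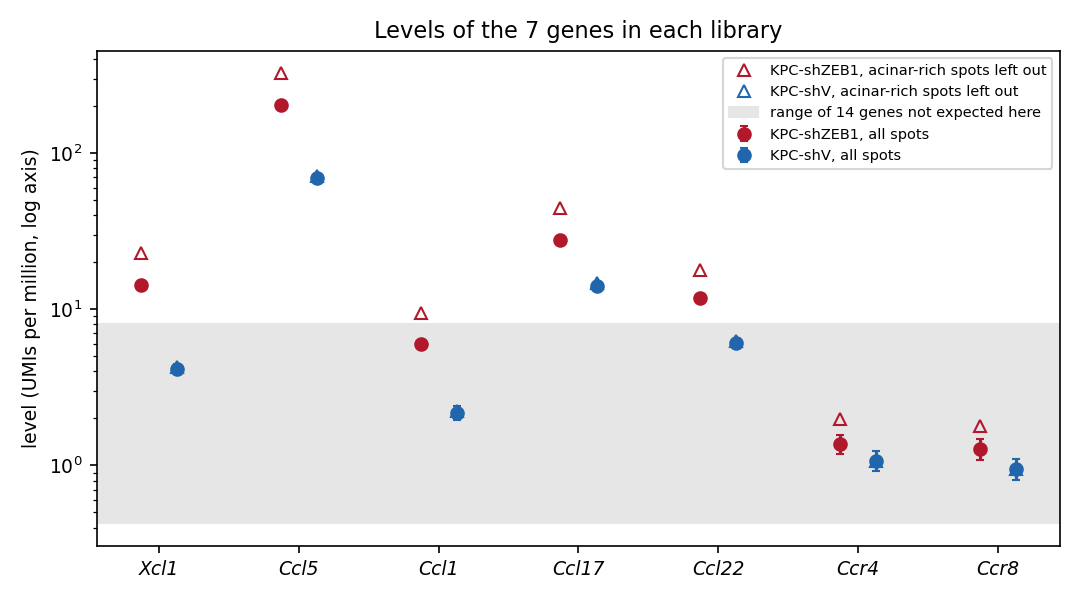
Level of each gene in CPM on a log axis, in each library. Filled circles are all spots with 95% counting intervals, open triangles leave out acinar-rich spots, and the grey band is the range of the 14 genes not expected here over both libraries. Xcl1, Ccl5, Ccl1, Ccl17 and Ccl22 lie higher in KPC-shZEB1, and Ccr4 and Ccr8 lie inside the band in both libraries.

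Outside acinar-rich spots the levels of all 7 genes were higher in KPC-shZEB1. There Xcl1 stood at 22.9 and 4.26 CPM, Ccl5 at 324.6 and 71.4 CPM and Ccl1 at 9.45 and 2.24 CPM in KPC-shZEB1 and KPC-shV, respectively. Their log2 ratios were 2.43, 2.18 and 2.08. Ccl17 stood at 44.4 and 14.6 CPM (log2 ratio 1.60) and Ccl22 at 18.0 and 6.30 CPM (1.51). Ccr4 at 1.99 and 1.06 CPM and Ccr8 at 1.78 and 0.955 CPM gave log2 ratios of 0.91 and 0.90.

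A log2 ratio of at least 1 in favor of KPC-shZEB1 was reached by 3 of the 7 genes over all spots (Xcl1, Ccl5 and Ccl1), and by 2.08% of 19011 genes with at least 100 UMIs. The same fold in favor of KPC-shV was reached by 0 of the 7 and by 8.20% of all genes. With acinar-rich spots left out the counts were 5 of 7 against 3.82% of 18893 genes, and 0 of 7 against 1.71% in the other direction. All 7 genes met the minimum of 100 UMIs. As the 7 were chosen from results of the same libraries, nothing is read from these shares. The median log2 ratio of the 7 genes was 0.98 over all spots, where that of all genes was -0.48, and 1.60 outside acinar-rich spots. Of the 46 other chemokine ligand and receptor genes, 7 were higher and 9 lower by that fold over all spots, with a median of -0.03, and 11 were higher and 3 lower outside acinar-rich spots, with a median of 0.50.

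The partners of these genes can be set beside them. Xcr1, the Xcl1 receptor, had 1.83 and 0.825 CPM in KPC-shZEB1 and KPC-shV, a log2 ratio of 1.15 at a level inside the range of genes not expected here. The Ccl5 receptors Ccr1 and Ccr3 had log2 ratios of -0.66 and -0.33, which became -0.05 and 0.09 outside acinar-rich spots. Ccl3 and Ccl4, inflammatory chemokines of the same CC family, had lower levels in KPC-shZEB1, with log2 ratios of -1.57 and -1.11 over all spots and of -0.95 and -0.46 outside acinar-rich ones. Ccl5 thus differed in direction from both on either set of spots.

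The share of spots with a UMI was counted after thinning each spot to 5000 UMIs, outside acinar-rich spots, with the acinar-rich spots of the same library as the type that should lack these genes. Ccl5 was detected in 45.1% of 1452 spots in KPC-shZEB1 (42.5% to 47.7%) and in 20.9% of 3121 spots in KPC-shV (19.5% to 22.4%), against 7.46% and 2.44% of acinar-rich spots. Xcl1 was detected in 9.16% and 2.40% of spots, against 0.916% and 1.63% of acinar-rich spots, and Ccl1 in 3.79% and 1.22%, against 0.262% and 0% (0 of 246 spots). Ccl17 was detected in 15.4% and 6.73% of spots, against 1.57% and 0.813%, and Ccl22 in 8.33% and 3.01%, against 1.57% and 0%. In KPC-shV the interval of Xcl1 in tumor-area spots (1.89% to 3.003%) lies within that of its acinar-rich spots (0.445% to 4.11%), so its detection there was not above this background at 5000 UMIs. Ccr4 was found in 1.52% and 0.705% of spots, against 0.654% and 0.813% of acinar-rich spots, and Ccr8 in 1.31% and 0.641%, against 0.262% and 0%. A share of 0 of 246 spots allows up to 1.22%, which the shares of Ccl1 and Ccr8 in KPC-shV do not exceed. The share of Ccr4 there lies below that of its acinar-rich spots, 2 of 246. At this depth Xcl1, Ccl1, Ccr4 and Ccr8 could thus not be told apart from the acinar-rich spots of KPC-shV. In KPC-shV the intervals of Ccl5, Ccl17 and Ccl22 lay above those of the acinar-rich spots. At full depth Ccl1 was found in 8.19% (7.28% to 9.18%) of tumor-area and 1.56% (0.426% to 3.94%) of these shallower acinar-rich spots. Xcl1 in KPC-shV was found at full depth in 12.6% (11.5% to 13.7%) of tumor-area and 3.502% (1.61% to 6.54%) of acinar-rich spots. These intervals of Xcl1 do not overlap, but the depths of the spots differ. After thinning to 20000 UMIs its shares were 6.15% (5.27% to 7.13%) and 2.58% (0.708% to 6.48%), and the intervals overlap. Without thinning, at median depths of 59957.5 and 52544.5 UMIs, the shares of all spots rose to 69.3% and 54.1% for Ccl5 and to 34.1% and 11.9% for Xcl1.

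The UMIs of Ccl5 were unevenly spread over spots. In KPC-shZEB1 682 spots had no Ccl5 UMI, 565 spots had 10 or more, and a single spot held 570. The 10 spots with the most Ccl5 held 16.2% of all its UMIs in KPC-shZEB1 and 8.71% in KPC-shV, where the highest spot held 190. Xcl1 reached 21 UMIs in a spot in both libraries, Ccl1 16 and 9, Ccl17 68 and 67, and Ccl22 31 and 14. Ccr4 and Ccr8 never exceeded 2 UMIs in a spot. With the 5% of spots with the highest level left out, the log2 ratio of Ccl5 was 1.21 in place of 1.57, and that of Xcl1 was 2.45 in place of 1.79. An Xcl1 UMI lay in 423 of 3552 spots of KPC-shV and in 758 of 2220 spots of KPC-shZEB1. Leaving out 5% thus took a larger part of such spots in KPC-shV, so Xcl1 and Ccl5 are not compared on this.

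To place the genes among cell types, spots outside acinar-rich ones were called rich in a marker list when its CPM lay in the top 10% over both libraries, each weighted equally, and the level of each gene was compared between rich and other spots of the same library. In several lists a single gene held most of the UMIs in KPC-shV, and in some of them in KPC-shZEB1 too. Trbc1, a T cell receptor constant chain, had 60.6 CPM in KPC-shV and 30.1 in KPC-shZEB1 outside acinar-rich spots, a log2 ratio of -1.01, whereas the other 7 T cell genes together had 38.4 and 196.4 CPM, a log2 ratio of 2.35. Klrc1 held 86.7% of the NK cell list in KPC-shV, Itgax 69.2% of the dendritic cell list, Cacnb3 78.9% of the mature dendritic cell list and Tlr3 89.5% of the cDC1 list. In KPC-shZEB1 Klrc1, Itgax, Cacnb3 and Tlr3 held 61.5%, 57.9%, 62.5% and 81.4% of the same lists. Trbc1 held 61.2% of the T cell list in KPC-shV and 13.3% in KPC-shZEB1. Contrasts of lists led by 1 such gene were therefore also computed without it, an alternative chosen after seeing the data.

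All 7 genes had a log2 ratio of at least 1 in spots rich in the T cell list without Trbc1, in both libraries. Over all genes 7.91% in KPC-shZEB1 and 26.0% in KPC-shV reached that fold, the latter in 68 spots with a median of 19135 UMIs, which were shallow against the 54907 of the area. In spots rich in the regulatory T cell list it was again 7 of 7 in both libraries, against 10.8% and 28.2% of genes. The median log2 ratio of the 7 genes in the T cell contrast was 1.69 in KPC-shZEB1 and 3.13 in KPC-shV, and that of all genes 0.03 and 0.19. In this contrast the 14 genes not expected here ran from -1.01 to 1.12 in KPC-shZEB1 and from -0.89 to 2.63 in KPC-shV. At the low levels of Ccr4 and Ccr8, nothing is therefore read from their T cell contrast in KPC-shV. Spots rich in the dendritic cell list without Itgax had 2 of 7 (Ccl17 and Ccl22) in KPC-shZEB1 against 11.9%, and 6 of 7 in KPC-shV against 16.7%. Macrophage-rich spots had 3 of 7 (Ccl5, Ccl22 and Ccr4) against 12.1%, and 6 of 7 against 17.2%. Spots rich in the interferon gamma response list had 3 of 7 (Xcl1, Ccl5 and Ccl1) against 0.561%, and 5 of 7 (Xcl1, Ccl5, Ccl1, Ccl17 and Ccl22) against 5.43%.

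**Figure D2:**
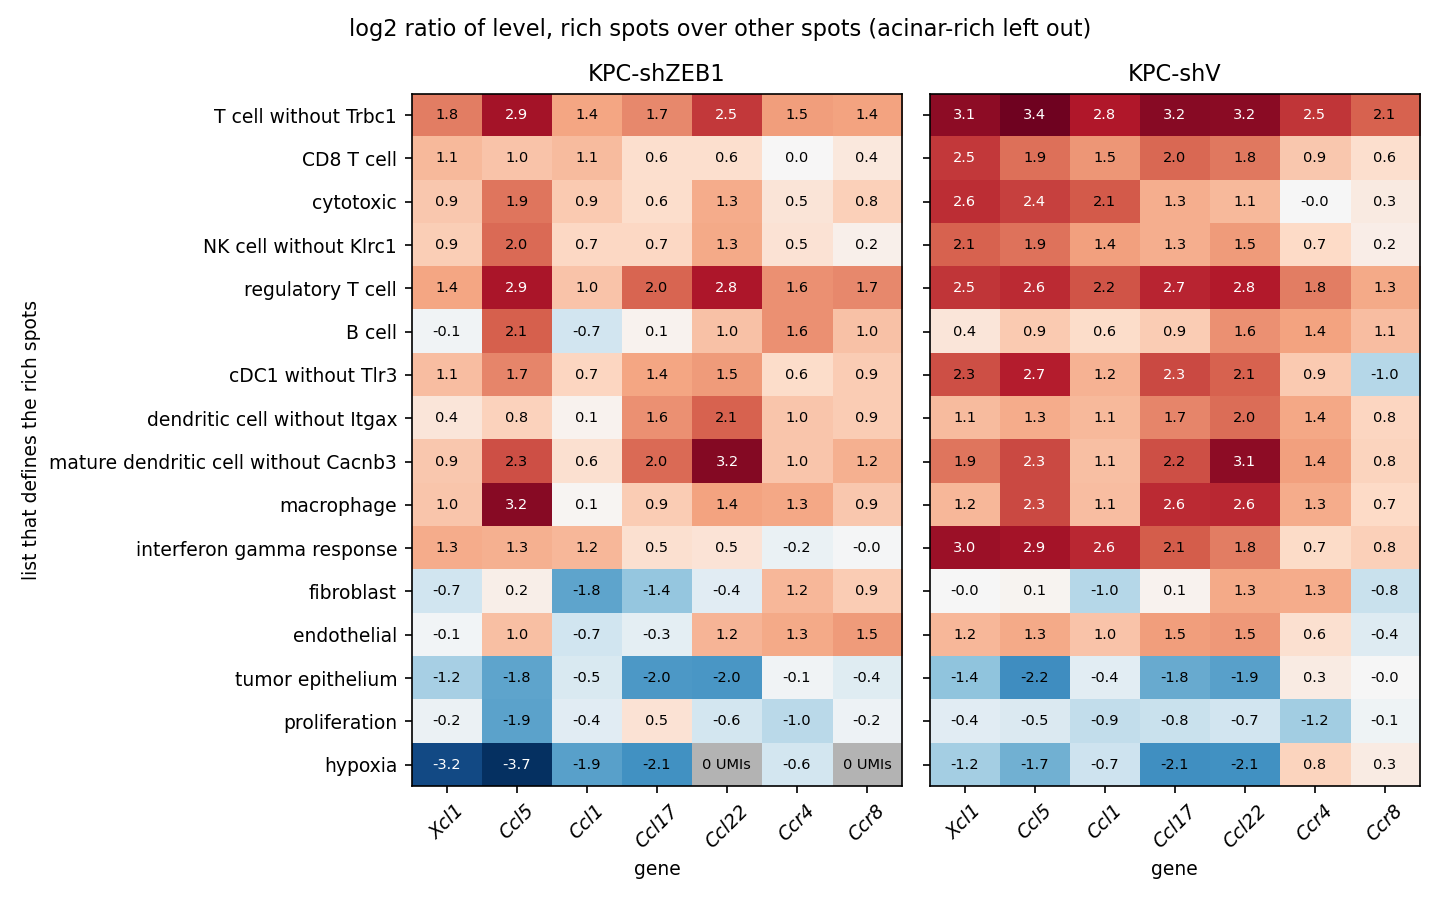
log2 ratio of the level in spots rich in a list (rows) over the level in the other spots, acinar-rich spots left out, for each gene (columns) in each library; red is higher and blue lower in rich spots, and grey marks 0 UMIs in the rich spots. Xcl1 and Ccl1 have high values in the T cell and interferon gamma response rows of both libraries. Ccl5 in KPC-shZEB1 has 3.17, 2.90 and 2.86 in the macrophage, T cell and regulatory T cell rows, above the interferon gamma response row (1.25). In KPC-shV Ccl5 has 2.32, 3.40 and 2.62 in these rows, and its interferon gamma response row (2.90) lies above all but the T cell row of these. Ccl17 and Ccl22 have high values in the dendritic and regulatory T cell rows. The 5 ligands have negative values, or 0 UMIs for Ccl22 in KPC-shZEB1, in spots rich in tumor epithelium or hypoxia genes.

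Xcl1 had a higher log2 ratio for the T cell list than for the NK cell list in both libraries. In KPC-shZEB1 its level was 57.8 CPM in T cell-rich and 17.1 CPM in other spots, a log2 ratio of 1.76 (1.62 to 1.89). In KPC-shV it was 15.2 and 3.93 CPM, a ratio of 1.95 (1.58 to 2.299), and without Trbc1 in the list 34.7 and 3.97 CPM, a ratio of 3.13. Other lists also had high Xcl1 ratios in KPC-shV, cytotoxic 2.59, regulatory T cell 2.50, dendritic cell 2.47 and CD8 T cell 2.47. These lie above the ratio of the full T cell list there. In KPC-shZEB1 they were 0.94, 1.39, 1.26 and 1.13, below that of the T cell list. In NK cell-rich spots the log2 ratio was 0.53 (0.35 to 0.71) in KPC-shZEB1 and 0.02 (-0.40 to 0.41) in KPC-shV. Without Klrc1, an inhibitory lectin receptor that led the NK cell list, these values were 0.86 and 2.07. When both reduced lists were crossed in KPC-shZEB1, spots rich in T cell but not NK cell genes had 55.2 CPM of Xcl1 and spots rich in NK cell but not T cell genes had 20.3 CPM, beside 16.2 CPM in spots rich in neither. In KPC-shV the same 3 classes had 35.8, 15.6 and 3.59 CPM. However, the NK cell list without Klrc1 was sparse, with 12.0 CPM in KPC-shZEB1 and 3.98 CPM in KPC-shV outside acinar-rich spots. The T cell list without Trbc1 had 196.4 and 38.4 CPM. A sparse list marks spots less well, so whether T cells or NK cells made Xcl1 cannot be read from these contrasts. In spots rich in the cDC1 list, which holds the receptor gene Xcr1, the log2 ratio of Xcl1 was 0.12 (-0.06 to 0.30) in KPC-shZEB1 and -0.31 (-0.81 to 0.15) in KPC-shV, and both intervals include 0. Without Tlr3 in the list the ratios were 1.08 and 2.27, so the relation of Xcl1 to this list turned on Tlr3.

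The interferon gamma response list, which holds Cxcl9, Cxcl10, Gbp2, Gbp5, Iigp1 and Ciita, marked Xcl1 as well. Xcl1 had 43.9 CPM in spots rich in it and 17.8 CPM in others in KPC-shZEB1, a log2 ratio of 1.31 (1.17 to 1.44), and 28.1 and 3.54 CPM in KPC-shV, a ratio of 2.99 (2.71 to 3.26). In KPC-shV such spots made up 2.94% of the area and held 19.2% of its Xcl1 UMIs. Spots rich in both the T cell list without Trbc1 and the interferon list had 84.9 CPM (76.0 to 94.5) in KPC-shZEB1 and 54.2 CPM (36.0 to 78.3) in KPC-shV, from 65 and 14 spots. Spots rich in neither had 13.4 and 3.40 CPM. The genes most like Xcl1 over spots, by the lower over both libraries of the correlation of counts given each spot's total, were Serpina3g (0.44 in KPC-shZEB1 and 0.42 in KPC-shV), Gbp7, Serpina3f, Gbp8 and Trbc2. Gbp7 and Gbp8 encode guanylate-binding proteins that interferon induces, and Trbc2 is a T cell receptor chain. These correlations run over 1456 and 3295 spots of 1 section each, which share library and neighborhood, and are a description.

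Ccl1 followed the same lists as Xcl1 at a lower count, though its T cell contrast is read in KPC-shZEB1 only. In KPC-shZEB1 it had 20.1 CPM in T cell-rich and 7.71 CPM in other spots, a log2 ratio of 1.38 (1.16 to 1.60), and in KPC-shV 6.23 and 2.12 CPM, a ratio of 1.55 (0.96 to 2.09) from 30 UMIs. The 14 genes not expected here reached 1.51 in this contrast in KPC-shV, inside the interval of Ccl1, so nothing is read from it there. In spots rich in the interferon gamma response list the log2 ratios of Ccl1 were 1.17 in KPC-shZEB1 and 2.63 in KPC-shV. After thinning to 20000 UMIs, spots with an Xcl1 UMI had 21.1 CPM of Ccl1 and spots without one 5.62 CPM in KPC-shZEB1, and 10.1 and 1.80 CPM in KPC-shV. In fibroblast-rich spots the log2 ratio of Ccl1 was -1.85 (-2.55 to -1.23) in KPC-shZEB1 and -1.01 (-2.89 to 0.36, 4 UMIs) in KPC-shV, where the interval includes 0.

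Ccl5 was high in both T cell-rich and macrophage-rich spots, and also in spots rich in other lymphocyte lists. In KPC-shZEB1 it reached 1266 CPM in T cell-rich spots against 169.4 CPM in others, a log2 ratio of 2.90 (2.87 to 2.94), and 1776 CPM in macrophage-rich spots against 196.9 CPM, a ratio of 3.17 (3.14 to 3.21). In KPC-shV the levels were 276.3 against 65.3 CPM (2.08, 2.00 to 2.16) and 294.9 against 59.1 CPM (2.32, 2.26 to 2.38). Without Trbc1 the T cell contrast was 692.5 against 65.5 CPM in KPC-shV, a ratio of 3.40. In spots rich in the interferon gamma response list the log2 ratio of Ccl5 was 1.25 in KPC-shZEB1 and 2.90 in KPC-shV. The latter lies above the ratio of macrophage-rich spots there. For the naive lymphocyte and lymph node list the Ccl5 ratios were 2.99 in KPC-shZEB1 and 2.34 in KPC-shV. They were 2.86 and 2.62 for the regulatory T cell list and 2.08 and 0.92 for the B cell list. These classes overlap, as 73 of 145 macrophage-rich spots in KPC-shZEB1 and 68 of 332 in KPC-shV were also B cell-rich. Without B cell-rich spots the log2 ratio of Ccl5 between the libraries was 1.19, against 1.57 over all spots. The macrophage list (C1qa, C1qb, C1qc, Adgre1, Mrc1 and Csf1r) itself had a log2 ratio between the libraries of 0.64 outside acinar-rich spots, and macrophage-rich spots were 9.96% and 10.1% of the area.

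Spots rich in both the T cell list without Trbc1 and the macrophage list held the highest Ccl5. In KPC-shZEB1, 87 spots rich in both had 2475 CPM (2429 to 2522) and held 39.2% of the Ccl5 UMIs outside acinar-rich spots, while 175 spots rich in T cell genes only had 583.3 CPM and 58 spots rich in macrophage genes only had 552.6 CPM. Spots rich in neither had 147.8 CPM. In KPC-shV, 38 spots rich in both had 767.4 CPM (715.0 to 822.5), and spots rich in T cell genes only had 542.3 CPM (480.8 to 609.6), close to their counterparts in KPC-shZEB1. Spots rich in macrophage genes only had 230.4 CPM and those rich in neither 57.5 CPM. Of the 4 classes, the one rich in T cell genes only was where the 2 libraries lay nearest to each other. Of the 10 spots with the most Ccl5 in KPC-shZEB1, 9 were macrophage-rich, 8 rich in the full T cell list (with Trbc1) and 8 regulatory T cell-rich. In KPC-shV the counts were 5, 3 and 3 of 10.

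**Figure D3:**
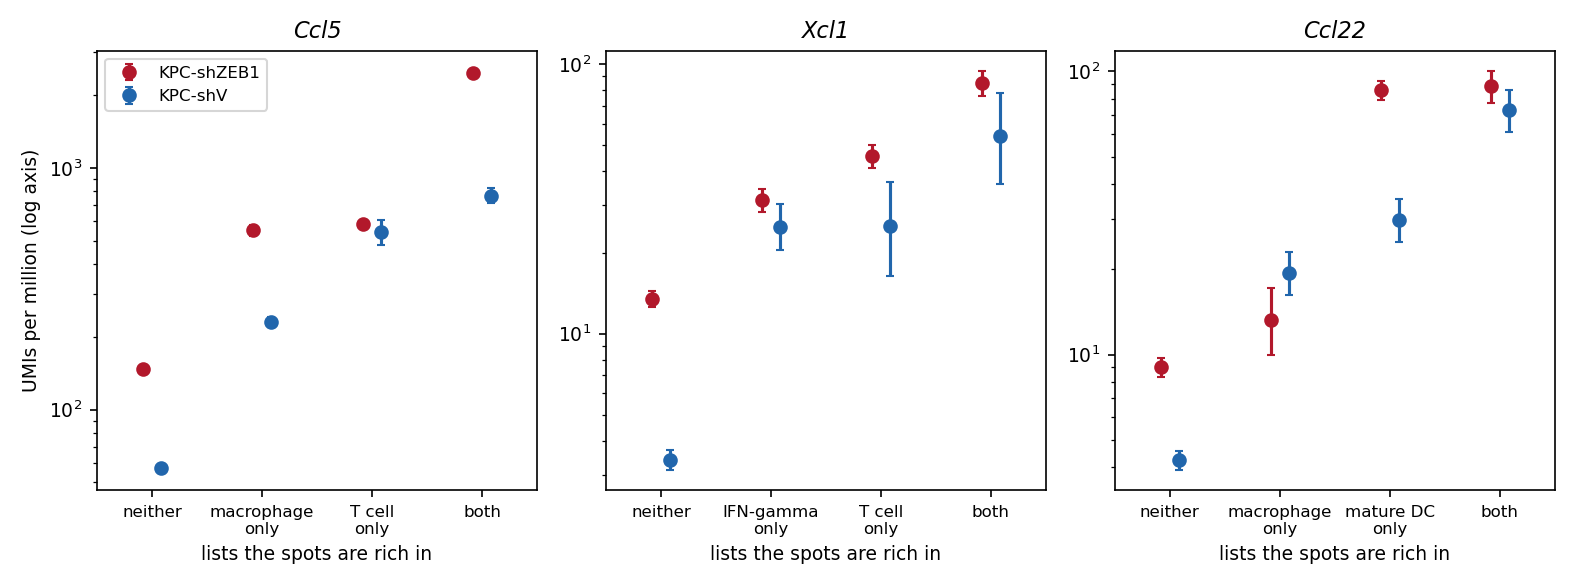
Levels in CPM (log axes) of Ccl5, Xcl1 and Ccl22 in spots rich in neither, 1 or both of 2 lists, acinar-rich spots left out, with 95% counting intervals. The T cell list is without Trbc1 and the mature dendritic cell (DC) list without Cacnb3. Ccl5 and Xcl1 are highest in spots rich in both lists, and Ccl22 in KPC-shZEB1 is as high in spots rich in the mature DC list alone (85.6 CPM) as in both (88.3 CPM). In KPC-shV Ccl22 has 72.7 CPM in spots rich in both, 29.8 CPM with the mature DC list alone, 19.4 CPM with the macrophage list alone and 4.23 CPM with neither.

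The genes most like Ccl5 in their pattern over spots were Ly6i (0.84 and 0.57), Ctss (0.77 and 0.57), Cd52, H2-Ab1, Cybb (0.89 and 0.53), Cd74, Fcgr4, Serpina3g, Mpeg1 and Hvcn1. Cybb is a subunit of the phagocyte oxidase, Ctss a lysosomal protease of antigen-presenting cells, and H2-Ab1 and Cd74 belong to major histocompatibility complex class II presentation. Fcgr4 is an Fc receptor of myeloid cells. None of the 10 is a T cell receptor or cytotoxic granule gene. However, only genes with at least 500 UMIs in each library were ranked, and sparse counts lower a correlation. Outside acinar-rich spots of KPC-shZEB1 the cytotoxic list had 2819 UMIs and the macrophage list 206193. The source of Ccl5 can therefore not be read from this ranking.

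Ccl5 was low where tumor epithelium or hypoxia genes were high, in both libraries. Tumor epithelium-rich spots had 103.8 CPM against 369.7 CPM in KPC-shZEB1 (log2 ratio -1.83) and 16.6 against 74.4 CPM in KPC-shV (-2.17). Hypoxia-rich spots had 25.7 CPM, from 17 spots, against 327.3 CPM in KPC-shZEB1 (-3.67) and 24.2 against 77.0 CPM in KPC-shV (-1.67), where they numbered 621. Between the libraries the log2 ratio of Ccl5 within hypoxia-rich spots was 0.08 (-0.64 to 0.73). Neutrophil-rich spots went in opposite directions, with a log2 ratio of 2.00 in 22 spots of KPC-shZEB1 and -1.64 in 610 spots of KPC-shV.

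Because the T cell lists themselves differed between the libraries, Ccl5 was compared at like T cell counts. Spots outside acinar-rich ones were thinned to 20000 UMIs and binned by their UMIs of the T cell list. With 0 list UMIs Ccl5 had 66.9 CPM in KPC-shZEB1 and 31.0 CPM in KPC-shV, with 1 it had 80.9 and 49.3 CPM, with 2 to 3 it had 126.4 and 80.3 CPM, and with 4 or more 595.8 and 196.6 CPM. The levels were averaged over these bins with the same bin weights in both libraries. The log2 ratio of the averaged levels was 1.35, against 2.07 without bins. That value turned on Trbc1. With the list without Trbc1 the bins had 56.6 and 31.7 CPM, 94.1 and 78.0 CPM, 154.4 and 137.7 CPM, and 662.5 and 477.3 CPM. The log2 ratio of the averaged levels was then 0.44. The libraries thus lay closest where 1 to 3 UMIs of the 7 T cell genes were counted. The bin of 4 or more is open-ended, and the number of T cell UMIs within it can differ between the libraries.

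Per 100 UMIs of the 7 T cell genes outside acinar-rich spots there were 165.3 Ccl5 UMIs in KPC-shZEB1 and 185.9 in KPC-shV, a log2 ratio of -0.17 (-0.20 to -0.14). With Trbc1 in the list the same count was 143.3 and 72.1, a log2 ratio of 0.99. For Xcl1 there were 11.7 and 11.1 UMIs per 100 T cell UMIs without Trbc1, a ratio of 0.07 (-0.05 to 0.20). In matched bins the log2 ratio of its averaged levels was 1.03 without Trbc1 and 1.80 with it. For Ccl1 the count was 4.81 and 5.84, a ratio of -0.28. For Ccl17 and Ccl22 it was 22.6 and 38.1, and 9.15 and 16.4, ratios of -0.75 and -0.84. Hence the T cell genes without Trbc1 differed between the libraries by about as much as Xcl1, Ccl5 and Ccl1 and by more than Ccl17 and Ccl22. Against dendritic cell genes in the same spots the direction was the other way. Per 100 UMIs of the mature dendritic cell list, Ccl17 had 50.8 UMIs in KPC-shZEB1 and 15.7 in KPC-shV, and Ccl22 20.6 and 6.77. These are log2 ratios of 1.69 and 1.60, and for the dendritic cell list they were 1.44 and 1.36. Without Cacnb3 and Itgax these lists differed between the libraries by log2 ratios of 0.74 and 0.61, below 1.60 for Ccl17 and 1.51 for Ccl22. Whether the number of T cells accounts for the levels was not tested.

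**Figure D4:**
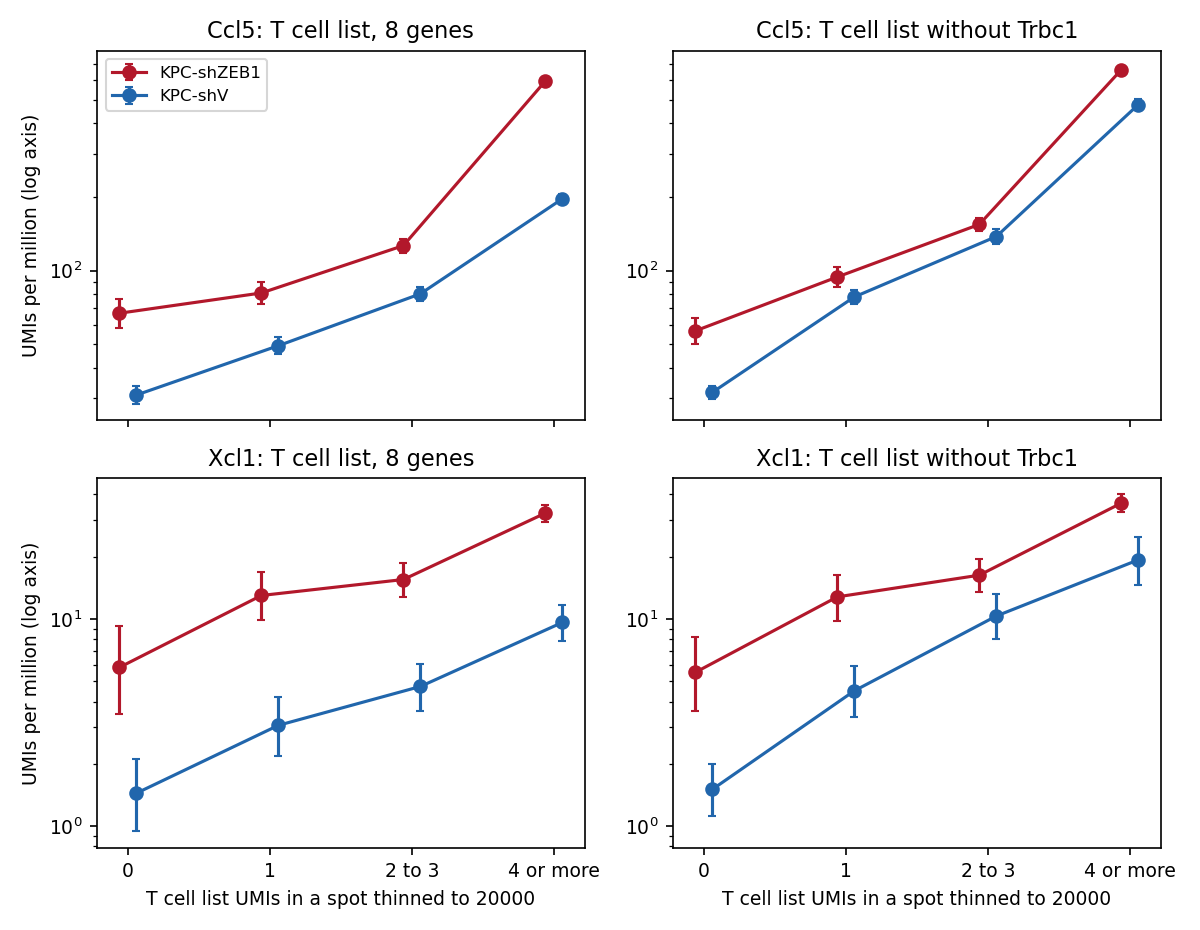
Levels of Ccl5 and Xcl1 in CPM (log axes) in spots outside acinar-rich ones, thinned to 20000 UMIs and binned by T cell list UMIs, with 95% counting intervals. The left panels use all 8 T cell genes and the right panels leave out Trbc1. The gap of Ccl5 between the libraries in the bin of 4 or more is 595.8 against 196.6 CPM on the left and 662.5 against 477.3 CPM on the right.

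Ccl17 and Ccl22 are neighbors on chromosome 8 of GRCm38, Ccl22 at chr8:94745590-94751699 and Ccl17 at chr8:94810453-94812036, both on the plus strand and 58.8 kb apart. They also lay together in the tissue. After thinning to 20000 UMIs, spots with a Ccl22 UMI had 113.3 CPM of Ccl17 and spots without one 29.1 CPM in KPC-shZEB1, a log2 ratio of 1.96 (1.80 to 2.12). In KPC-shV the levels were 64.3 and 11.9 CPM, a ratio of 2.43 (2.24 to 2.63). The bases before the gene starts are shown because the pair moved together, from RefSeq promoters on GRCm38.p6, plus strand, 5′ to 3′, at chr8:94745434-94745589 for Ccl22, which stops just before the annotated gene, and chr8:94810293-94810452 for Ccl17. Capitals mark TTC and GAA parted by 3 bases (TTCNNNGAA) or by 4 bases, the palindromes that STAT factors bind.
Ccl22: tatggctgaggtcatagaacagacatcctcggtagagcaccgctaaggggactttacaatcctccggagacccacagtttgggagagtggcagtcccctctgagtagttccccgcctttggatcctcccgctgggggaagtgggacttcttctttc
Ccl17: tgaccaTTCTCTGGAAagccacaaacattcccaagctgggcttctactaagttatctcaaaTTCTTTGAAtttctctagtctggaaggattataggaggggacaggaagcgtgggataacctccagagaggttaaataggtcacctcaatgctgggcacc
In the 250 bases before the RefSeq start, Ccl17 held 1 match of each spacing, TTCTTTGAA and TTCTCTGGAA, which began 99 and 154 bases before the start, and Ccl22 held 0. Both strands were searched, and of 32851 promoters of this length 7.02% held the spacing of 3 and 5.85% the spacing of 4. The motifs were chosen after these sequences had been seen, and a match describes letters, not a bound site.

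Ccl22 was high in spots rich in mature dendritic cell genes, but also in spots rich in some lymphocyte lists. In KPC-shZEB1 it had 106.3 CPM in spots rich in the mature dendritic cell list against 11.1 CPM in others, a log2 ratio of 3.26 (3.11 to 3.40), and 42.6% of its UMIs lay in 128 spots that held 7.19% of the total. In KPC-shV the levels were 24.4 and 5.05 CPM, a ratio of 2.27 (2.06 to 2.48). Cacnb3, a calcium channel subunit, led this list in UMIs, and without it the ratios were 3.22 and 3.12. Ccr7, the receptor that leads mature dendritic cells and naive lymphocytes to lymph nodes, is in this list. It was also the gene most like Ccl22 over spots (0.78 in KPC-shZEB1 and 0.51 in KPC-shV), followed by Ccl17, Cd52, Cd83 and Cst3. Of the 10 spots with the most Ccl22 in KPC-shZEB1, 10 were regulatory T cell-rich, 9 rich in the mature dendritic cell list and 0 macrophage-rich. In KPC-shV the counts were 5, 5 and 4 of 10. Spots rich in the naive lymphocyte and lymph node list, which also holds Ccr7, made up 8 and 6 of the 10 in KPC-shZEB1 and KPC-shV. For that list the log2 ratios of Ccl22 were 2.92 and 3.18, and for the regulatory T cell list 2.83 and 2.78. In KPC-shV these ratios, and 2.38 for the plasma cell list, lie above the 2.27 of the full mature dendritic cell list. Ccl22 was also higher in macrophage-rich spots, with 42.1 against 15.8 CPM in KPC-shZEB1, a log2 ratio of 1.41 (1.22 to 1.59), and 30.7 against 4.95 CPM in KPC-shV, a ratio of 2.64 (2.43 to 2.84) that lies above that of the full mature dendritic cell list there. Spots rich in mature dendritic cell genes (without Cacnb3) but not macrophage genes had 85.6 CPM in KPC-shZEB1 and 29.8 CPM in KPC-shV, while those rich in macrophage genes only had 13.2 and 19.4 CPM.

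Ccl17 followed the dendritic cell lists and, in KPC-shV, the macrophage list, but was as high in spots rich in some lymphocyte lists. In KPC-shZEB1 it had 146.6 CPM in spots rich in the mature dendritic cell list against 36.5 CPM, a log2 ratio of 2.01 (1.90 to 2.12), and 168.9 against 33.8 CPM in spots rich in the dendritic cell list, a ratio of 2.32 (2.22 to 2.42). In KPC-shV the ratios were 1.68 (1.52 to 1.83) and 2.62 (2.50 to 2.75). Without Cacnb3 and Itgax they were 1.98 and 1.59 in KPC-shZEB1 and 2.25 and 1.71 in KPC-shV. For the regulatory T cell list the log2 ratios of Ccl17 were 2.04 in KPC-shZEB1 and 2.67 in KPC-shV. For the T cell list they were 1.78 and 1.91, and for the naive lymphocyte and lymph node list 1.68 and 2.61. The pattern was thus not particular to dendritic cell genes. Macrophage-rich spots of KPC-shV had 70.4 CPM of Ccl17 against 11.6 CPM in others, a ratio of 2.61 (2.47 to 2.74), and the same ratio was 0.89 (0.76 to 1.02) in KPC-shZEB1. In KPC-shV the spots rich in macrophage but not dendritic cell genes had 74.6 CPM and those rich in dendritic cell (without Itgax) but not macrophage genes 35.6 CPM. In KPC-shZEB1 the order was turned, with 76.9 and 130.7 CPM. The genes most like Ccl17 were Cd52, Plbd1, Ctsz, Mgl2 (0.71 and 0.47) and Clec4n. Mgl2 is a lectin of a dendritic cell subset and of macrophages.

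Both dendritic cell ligands were low in tumor epithelium-rich and hypoxia-rich spots. Ccl17 had log2 ratios of -2.02 and -1.77 in tumor epithelium-rich spots of KPC-shZEB1 and KPC-shV, and Ccl22 had -2.03 and -1.89. In hypoxia-rich spots Ccl17 had -2.12 and -2.14. Ccl22 had -2.11 in KPC-shV and 0 UMIs in the 17 hypoxia-rich spots of KPC-shZEB1, a count that allows up to 3 UMIs.

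Ccr4 and Ccr8 were higher in regulatory T cell-rich spots. In KPC-shZEB1 Ccr4 had 4.96 CPM (3.61 to 6.66) there and 1.65 CPM in other spots, a log2 ratio of 1.59 (1.06 to 2.09), and Ccr8 had 4.62 CPM (3.32 to 6.27) and 1.45 CPM, a ratio of 1.67 (1.12 to 2.20). The same contrast of the 14 genes not expected here ran from -1.27 to 1.02, so both receptors exceeded all of them. In KPC-shV Ccr4 had 3.47 and 0.999 CPM, a ratio of 1.80 (0.93 to 2.56) from 15 UMIs, and Ccr8 2.31 and 0.919 CPM, a ratio of 1.33 (0.24 to 2.25) from 10 UMIs. There the genes not expected here ran from -0.72 to 1.83 with a median of 1.11, so neither receptor stood apart from them. The contrast was not particular to the regulatory T cell list. In KPC-shZEB1 Ccr4 had log2 ratios of 1.62, 1.61 and 1.60 in spots rich in the plasma cell, T cell and B cell lists, and Ccr8 had 1.499 and 1.31 in spots rich in the endothelial and T cell lists. In KPC-shV plasma cell-rich spots had a log2 ratio of 1.66 for Ccr4 and 1.64 for Ccr8, from 9 and 8 UMIs. Regulatory T cell-rich spots of KPC-shV had a median of 14688 UMIs, against 57238 in other spots, and 45955 against 59768 in KPC-shZEB1. The regulatory T cell list holds Foxp3, Il2ra, Ctla4, Ikzf2, Tnfrsf4 and Tnfrsf18. Per 100 of its UMIs outside acinar-rich spots, Ccr4 had 3.84 and 3.94 UMIs in KPC-shZEB1 and KPC-shV. Ccr8 had 3.44 and 3.54, so both receptors differed between the libraries in step with this list. This was not particular to it, as the cytotoxic, type 2 lymphocyte and mast cell lists had like log2 ratios (0.96, 0.82 and 1.03). Per 100 UMIs of the 7 T cell genes without Trbc1 the log2 ratio was -1.45 for each receptor.

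The ligands Xcl1, Ccl1, Ccl17 and Ccl22 were set against the receptors Xcr1, Ccr4 and Ccr8, by comparing spots with and without a UMI of the receptor. After thinning to 20000 UMIs, Ccl1 had 16.7 CPM in 57 spots with a Ccr8 UMI and 9.50 CPM in spots without one in KPC-shZEB1, a log2 ratio of 0.81 (0.05 to 1.48), and 7.14 and 2.23 CPM in KPC-shV, a ratio of 1.68 (0.21 to 2.85) from 6 UMIs. Ccl17 with and without Ccr4 had 50 and 46.0 CPM in KPC-shZEB1 (0.12, -0.27 to 0.48) and 30.2 and 16.8 CPM in KPC-shV (0.85, 0.32 to 1.34). Ccl22 with and without Ccr4 had log2 ratios of 0.02 (-0.61 to 0.58) and 0.78 (-0.11 to 1.54). Xcl1 with and without Xcr1 had 31.0 and 21.6 CPM in KPC-shZEB1 (0.52, 0.05 to 0.97), and in KPC-shV it had 2 UMIs in the 43 spots with Xcr1. For Ccl22 and Ccr4 the intervals include 0 in both libraries. At this depth Ccr4 was found in 4.56% (3.53% to 5.78%) of these spots of KPC-shZEB1 and in 0.938% (0.378% to 1.92%) of its acinar-rich spots. Ccr8 was found in 4.06% (3.09% to 5.23%) and 0.402% (0.083% to 1.17%). In KPC-shV these intervals overlapped for both receptors, so a spot with a UMI cannot be told apart from background there. Xcr1 was not set against acinar-rich spots, and its level lay inside the range of genes not expected here.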

How the data were processed

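A spatial library of KPC-shZEB1 and another of KPC-shV were used. The authors ran Visium CytAssist with probes and Space Ranger 2.0.1 on mm10, as the submitters' processing notes give it, and deposited un-normalized UMI counts for each gene in each tissue spot. Other deposited columns (gene identifiers, symbols, barcodes) served as labels. The 7 genes and the marker lists were chosen with earlier results of these data known.

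From the deposited counts, levels (CPM) were summed over spots, with exact Poisson intervals, and log2 ratios with exact conditional binomial intervals, at the 95% level. Shares were taken after thinning each spot at random to 5000 UMIs (exact binomial). Spots in the top 10% of a list's CPM, above 0 and outside acinar-rich spots, were called rich. Spots are regions of 1 section and not replicates, so no test was made and no p-value is given. No doublet caller or deconvolution was run, and images were not used here. Some genes are not reported here.

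Named genes were the 7, Zeb1, the chemokine family by counts with the receptors, Ccl3 and Ccl4, the marker list genes, and for each of the 7 with at least 500 UMIs in each library the 5 genes (10 for Ccl5) most alike by Pearson correlation of residuals over spots. Ccl1, Ccr4 and Ccr8 missed that minimum. Amy2b, Cpb1, Pnliprp1, Prss1, Try5, Ccl19, Ccl21a, Ccnb1 and Krt18 of the lists are not in the feature list used. Gene positions are those of GENCODE M21 (GRCm38) for the Ensembl identifier, and promoters came from RefSeq on GRCm38.p6, which matched 6 of the 7 by symbol (all but Ccl5). Alternatives were leaving out acinar-rich, B cell-rich or shallow spots (under 20000 UMIs) or the 5% of spots with the highest level, median-of-ratios scaling, CPM averaged over spots, the top 5% in place of 10%, no thinning or thinning to 20000 UMIs, the cytotoxic list for matching and, chosen after seeing the data, the lists led by 1 gene in KPC-shV without that gene. The log2 ratios were checked on simulated library totals with known folds, and the thinning on simulated spots. The contrasts of rich spots and the matched bins were not checked by simulation. The work was done in Python 3.11.15 with pandas 2.3.3, numpy 2.4.6, scipy 1.17.1 and matplotlib 3.10.9.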

Additional observations from a re-analysis of the deposited data

How the results depend on the processing

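With 1 library per group no spread between tumors is known, and the intervals cover counting error only. No paired analysis was possible because each group has 1 library. Ccr4 and Ccr8, with under 200 UMIs in a library, are limited by depth.

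Of the alternatives for the values that answer a comparison, 45 stayed within the counting interval (or within 1.5 times a count), 41 moved outside it and 1 changed direction, and where no reason is given the cause was not tested. With acinar-rich spots left out, the log2 ratio between the libraries was 2.43 for Xcl1, 2.18 for Ccl5, 2.08 for Ccl1, 1.60 for Ccl17, 1.51 for Ccl22, 0.91 for Ccr4 and 0.90 for Ccr8, and 5 genes passed a log2 ratio of 1. With median-of-ratios scaling it was 2.27, 2.05, 1.94, 1.46, 1.44, 0.83 and 0.90, in the same order, and again 5 genes passed. With CPM averaged over spots it was 1.08 for Ccl17 and 0.0066 for Ccr4, and the ratio of Ccr8 turned to -0.092. Without B cell-rich spots Ccl5 had 1.19. Without the 5% of spots with the highest level the ratio was 2.45 for Xcl1, 1.21 for Ccl5, 2.35 for Ccl1 and 5.33 for Ccr4, because those spots held 98.9% of the Ccr4 UMIs of KPC-shV, and Ccr8 gave no value because all of its UMIs in KPC-shV lay in them.

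For rich over other spots, the top 5% gave Xcl1 0.72 for the NK cell list in KPC-shZEB1, Ccl5 3.28 and 2.45 for the T cell list in KPC-shZEB1 and KPC-shV, Ccl1 1.15 for it in KPC-shZEB1, and for the mature dendritic cell list Ccl17 2.57 and 1.93 and Ccl22 3.74 and 3.004. Without spots under 20000 UMIs, Ccl5 had 2.95 for the T cell list in KPC-shZEB1 and Ccl17 had 1.503 for the mature dendritic cell list in KPC-shV. Without the leading gene of the list, chosen after seeing the data, Xcl1 had 0.86 and 2.07 for the NK cell list, and in KPC-shV Ccl5 had 3.40 and Ccl1 2.80 for the T cell list, and Ccl17 2.25 and Ccl22 3.12 for the mature dendritic cell list. At matched T cell UMIs the log2 ratio of Ccl5 was 0.44 without Trbc1 and 1.73 with the cytotoxic list. Shares of spots rose with depth, in 28 of 28 alternatives.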
